A study of Homo sapiens with 11 samples.

Results

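The genes described here encode the chains of collagens and laminins and the subunits of integrins in HCC78, a lung adenocarcinoma cell line. They were chosen as the protein-coding genes named COL, LAMA, LAMB, LAMC, ITGA or ITGB with a number or letter that had a mean of at least 1 FPKM (sequenced fragments of a gene scaled to its length and to the size of the library) over 9 RNA-Seq libraries. The rule kept 37 of 82 such entries, which were 12 of 43 collagen, 8 of 12 laminin and 17 of 27 integrin entries, among 15179 genes at that mean and 57773 genes in the table. Names were matched whole, so COL4A3BP, ITGB1BP1, ITGB1BP2, ITGB3BP and ITGBL1, which only begin like a member, were left out. Of the 37 members, 36 are described, and counts of members called are over these. The members were thus selected on their mean FPKM, and the levels themselves are given as a description, with no test.

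HCC78 cells carried a tagged wild-type (WT) or S34F mutant cDNA of the splicing factor U2AF1 behind a promoter that doxycycline switches on, in stable subclones made with a lentiviral vector, or were the untransduced parental line. All groups had the SLC34A2-ROS1 fusion of HCC78 and its own U2AF1 alleles, which include S34F, so the controls carry the mutation too. By the labels, S34F was 28% to 33% of the U2AF1 mRNA without induction, 62% and 65% of it in S34F dox+, and 12% and 14% with the WT construct induced. The groups were WT dox+, S34F dox+, WT dox- and parental with 2 libraries each, and S34F dox- with 1 library, and the doxycycline status of the parental libraries is given as minus by the sample labels and as plus by a supplementary table of the study. Each construct was represented by 1 transduced line, so construct and line cannot be told apart, and no line without a construct has a settled doxycycline label, so doxycycline and induction of U2AF1 cannot be told apart. Nothing says that replicates came from separate cultures, so p-values measure only the spread between these libraries.

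Collagens form the fibres and networks of the extracellular matrix, and laminins are cross-shaped trimers of an alpha, a beta and a gamma chain that organise the basement membrane beneath an epithelium. Integrins are dimers of an alpha and a beta subunit that bind these proteins from the cell surface and link them to the cytoskeleton. In epithelial cells, laminin with the LAMA3 and LAMB3 chains is the ligand of the hemidesmosomal integrin alpha6 beta4.

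Depth relative to parental replicate 1, estimated from low FPKM values, lay between 0.959 and 1.27 in the other 4 uninduced libraries and between 0.599 and 1.07 in the 4 dox+ libraries. Genes at 1 FPKM or more numbered 13661 to 14688 without induction and 15736 to 17716 in 3 dox+ libraries, while S34F dox+ replicate 2 stood apart with 20896. U2AF1 was at 103 to 115 FPKM without induction, at 278 and 299 FPKM with the WT construct induced and at 164 and 223 FPKM with the S34F construct induced. All 8 epithelial markers were expressed, with a summed level of 8471 to 11510 FPKM. Fibroblast markers summed to 3.03 to 6.79 FPKM in the uninduced libraries and to 6.76 to 12.99 FPKM in the dox+ libraries, endothelial markers to between 1.05 and 3.37 FPKM, and haematopoietic markers to between 15.5 and 36.4 FPKM. The part of these markers and of depth in the results was not tested. In bulk RNA, fewer cells that express a gene and less of its RNA per cell cannot be told apart.

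Integrins and laminins, not collagens, made up most of the RNA of these genes. Summed over the members described, FPKM per library was 835 to 1024 for integrins, 529 to 699 for laminins and 61.7 to 82.1 for collagens. The 4 members described above 100 FPKM on average were ITGB1, the beta subunit shared by most matrix-binding integrins, at 581 FPKM, followed by the laminin chains LAMC1 at 238 FPKM, LAMA3 at 152 FPKM and LAMB3 at 126 FPKM. ITGB1 alone held between 57.6% and 68.0% of summed integrin FPKM. At the other end, 6 members were under 2 FPKM. Just inside the minimum were COL17A1 at 1.05, ITGB3 at 1.08, COL7A1 at 1.14 and ITGA10 at 1.24 FPKM, and just outside it were ITGA2B at 0.918, LAMA2 at 0.826 and COL6A3 at 0.820 FPKM. Without the S34F dox+ libraries COL2A1, ITGA10 and ITGB3 fell below the minimum, without WT dox+ COL7A1 and COL17A1 did, and COL17A1 also did without S34F dox-, so these 5 members had to be high in such a group, COL17A1 in both S34F dox- and WT dox+, to pass.

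**Figure D1:**
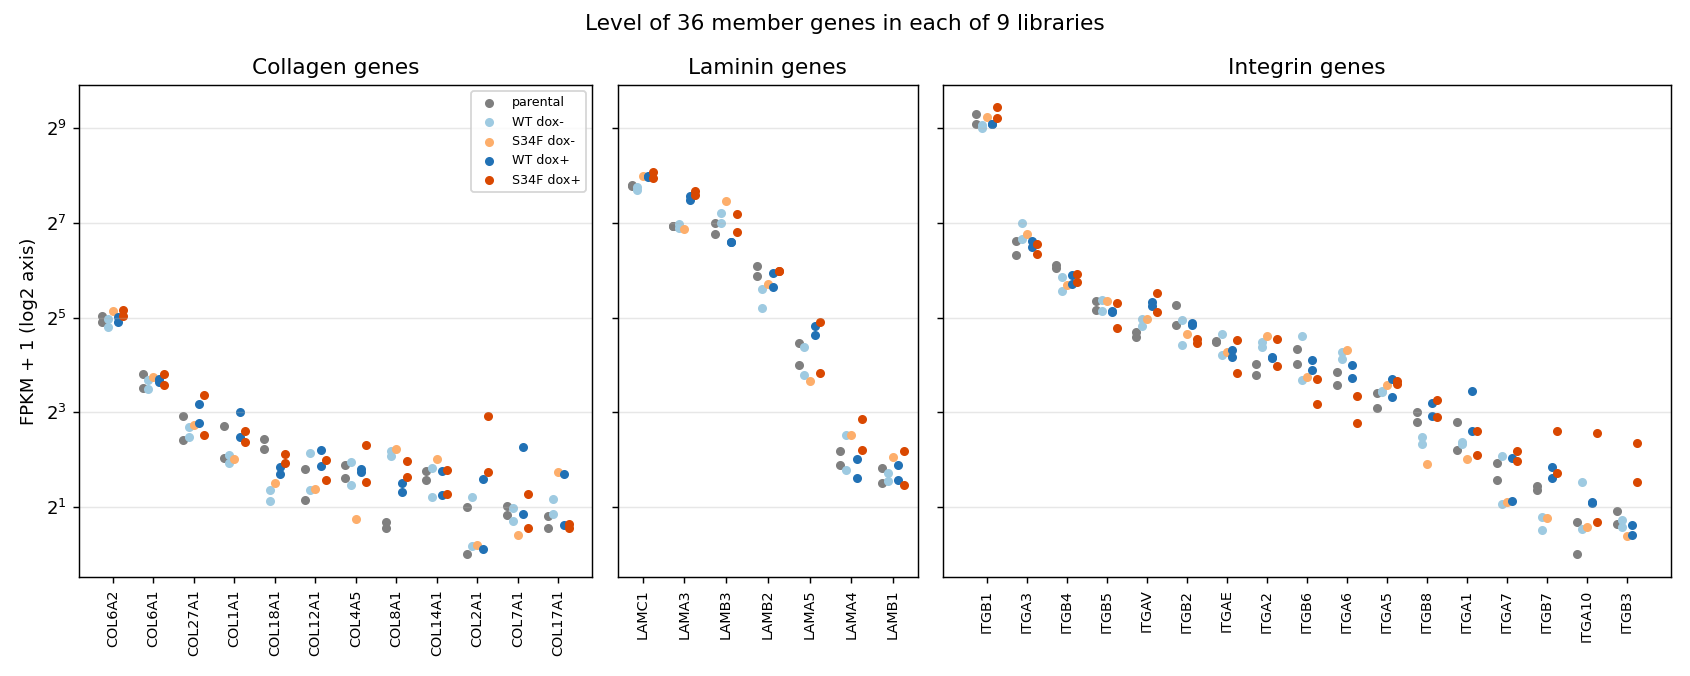
FPKM plus 1 on a log2 axis for 36 members, ordered by mean within each family, with 1 point per library coloured by group. ITGB1 and the laminin chains LAMC1, LAMA3 and LAMB3 stand above 100 FPKM, whereas collagens other than COL6A2 and COL6A1 have means under 10 FPKM.

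Collagen expression was led by collagen VI, a microfibril-forming collagen. COL6A2 was at 29 and 32.0 FPKM in parental cells, 27.1 and 30.3 in WT dox-, 34.5 in S34F dox-, 31.8 and 35.0 in S34F dox+ and 31.2 and 28.9 in WT dox+. COL6A1 ranged between 10.3 and 13.1 FPKM over the 9 libraries. Both chains stayed within a 1.29-fold range, and COL6A3, the chain that completes the usual trimer, was listed between 0.360 and 1.73 FPKM. The collagen IV chains COL4A1 and COL4A2, the main collagen of basement membranes, had means of 0.130 and 0.489 FPKM and were not members, whereas COL4A5, a minor basement membrane chain, had a mean of 2.3 FPKM. COL1A1, the alpha1 chain of the fibrillar type I collagen, had a mean of 4.29 FPKM, with COL1A2, its partner, under the minimum.

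Laminin RNA held both an epithelial and a general set of chains. LAMA3 and LAMB3, both chains of epithelial laminin, followed LAMC1 among the chains described. Of the chains of laminin-511, the widespread basement membrane laminin, LAMC1 was at 207 to 270 FPKM, LAMA5 at 11.7 to 29 FPKM and LAMB1 at 1.78 to 3.57 FPKM. LAMB2, the alternative beta chain, was at 35.9 to 67.0 FPKM. FPKM is per length, so these levels can be set side by side, and LAMC1 was 69.6 to 152 times LAMB1 in the same library.

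LAMA3 and LAMB3 did not move together when doxycycline was added. The differences of these chains had opposite signs. The promoters of LAMA3 and LAMB3 are shown because a window of each holds the letters that AP-1 factors recognise, and a part of AP-1 in the differences was not tested. They are the 250 bases before a RefSeq start in GRCh38.p14, 5′ to 3′, for LAMA3 from the plus strand of chr18:23872770-23873019 and for LAMB3 from the minus strand of chr1:209651375-209651624, with TGANTCA in capitals.
LAMA3: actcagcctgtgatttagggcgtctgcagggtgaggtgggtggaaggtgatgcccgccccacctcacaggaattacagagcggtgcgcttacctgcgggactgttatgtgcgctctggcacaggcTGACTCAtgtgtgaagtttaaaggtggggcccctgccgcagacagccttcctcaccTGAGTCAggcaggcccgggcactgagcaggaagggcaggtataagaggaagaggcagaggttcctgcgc
LAMB3: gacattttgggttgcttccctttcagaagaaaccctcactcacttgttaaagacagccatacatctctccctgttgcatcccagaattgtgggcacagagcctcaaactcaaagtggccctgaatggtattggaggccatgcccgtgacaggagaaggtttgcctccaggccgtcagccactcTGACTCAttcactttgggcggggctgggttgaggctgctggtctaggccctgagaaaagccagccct
In LAMA3 the letters began at positions -125 and -69 from the start, and in LAMB3, in 1 of its 3 windows, at -67. LAMA3 had a single window, whereas transcripts listed for its splicing events began at chr18:21269407 and chr18:21464737 (hg19). Its FPKM is over the whole gene and need not come from the start shown. TGANTCA reads the same on both strands, and no other motif was searched. Of the 26 members with a promoter in the table, LAMA3 and LAMB3 were the 2 with a match. Counted by window, 2 of 34 promoter windows of members (5.88%) and 2308 of 35116 of all genes (6.57%) held one. A match of letters is a description, not a site.

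LAMA3, the alpha chain, was at 122 and 121 FPKM in parental cells, 119 and 125 in WT dox-, 117 in S34F dox-, 203 and 191 in S34F dox+, and 189 and 179 in WT dox+. The 4 dox+ libraries all lay above the 5 others, whichever construct was induced. LAMB3, the beta chain, was at 128 and 108 FPKM in parental cells, 148 and 128 in WT dox-, 176 in S34F dox-, 145 and 111 in S34F dox+, and 96.2 and 96.4 in WT dox+. It was lower with doxycycline within each line, though S34F dox+ overlapped WT dox-.

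The ratio of LAMA3 to LAMB3 FPKM shows the shift within each library. It was 0.956 and 1.12 in parental cells, 0.802 and 0.982 in WT dox-, 0.665 in S34F dox-, 1.4 and 1.72 in S34F dox+, and 1.97 and 1.86 in WT dox+. The 4 dox+ libraries were the high ones and did not overlap the 5 others. The ratio was chosen after the levels had been seen and carries no test.

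**Figure D2:**
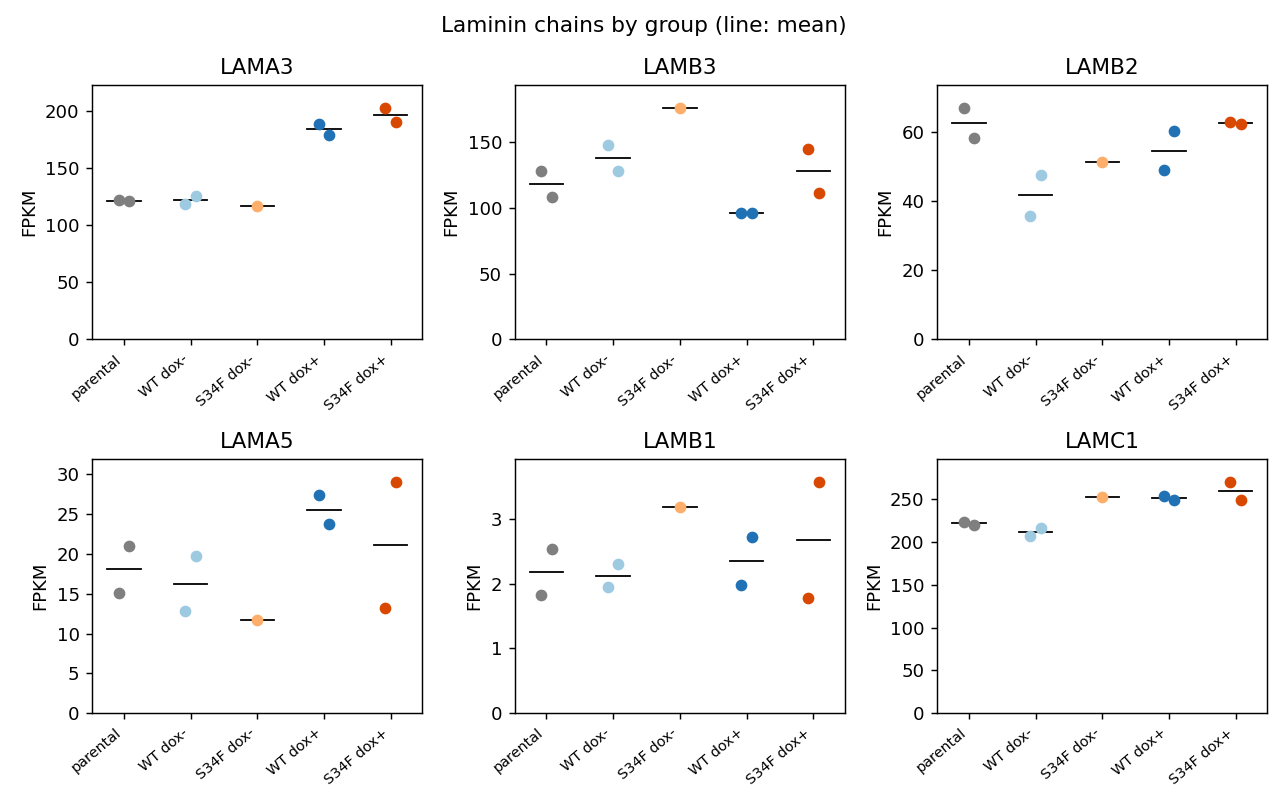
FPKM of LAMA3, LAMB3 and LAMB2 (top row) and of the chains of laminin-511 (bottom row) in each library, by group, with the mean as a line. LAMA3 is at 179 to 203 FPKM in the dox+ libraries against 117 to 125 FPKM in the others, while LAMB3 is lowest in WT dox+ (96.2 and 96.4 FPKM).

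The first question was whether these genes differed between cells expressing mutant and wild-type U2AF1. Differences are on the log2(FPKM + 1) scale from limma, with p-values adjusted by Benjamini-Hochberg over all 15179 genes, and a gene was called at an adjusted p under 0.05. Between S34F dox+ and WT dox+, limma called 0 of 36 members, where 8 of all genes were called (0.0527%). At an unadjusted p under 0.05, ITGB3 and LAMB3 were higher and ITGA6 was lower, which is 2 members against 4.01% of all genes and 1 member against 2.77%. ITGB3 was a member only through its level in S34F dox+, so it had to be high there and the count of 2 says nothing about the members. The groups did not overlap for 10 members that were higher and 4 that were lower, against 20.5% and 15.3% of all genes, and the 10 include COL2A1 and ITGB3, which passed the minimum only through S34F dox+. The median difference of members was 0.04, that of all genes 0.03, and 23 of 36 members had a value above 0.

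ITGA6, the alpha subunit that pairs with ITGB4 in hemidesmosomes, had the lowest value among members. It was at 12.2 and 15.1 FPKM in WT dox+ and at 5.88 and 9.14 FPKM in S34F dox+, and without induction it was at 13.5 and 10.9 in parental cells, 18.5 and 16.6 in WT dox- and 19.0 in S34F dox-. Both S34F dox+ libraries lay below the other 7. The log2 difference was -0.80 ± 0.22 (SE, limma), with an adjusted p of 0.545, and it ranged between -1.08 and -0.52 when a library was left out. ITGB4, its partner, was at 51.5 and 58.9 FPKM in WT dox+ and 52.8 and 59.3 FPKM in S34F dox+, a log2 difference of 0.02 ± 0.14 (SE). The ratio of ITGB4 to ITGA6 FPKM was therefore widest in S34F dox+, at 8.98 and 6.49 against 4.22 and 3.91 in WT dox+ and 2.49 to 6.00 in the uninduced libraries.

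ITGB3, the beta subunit of the vitronectin receptor with ITGAV, was at 4.09 and 1.89 FPKM in S34F dox+ and between 0.310 and 0.890 FPKM in the 7 other libraries. Its log2 difference between S34F dox+ and WT dox+ was 1.43 ± 0.41 (SE, limma), with an adjusted p of 0.555, and it passed the minimum only through S34F dox+. The table lists a further ITGB3 entry at 0 in all libraries. COL2A1, the chain of the fibrillar type II collagen of cartilage, was at 2.36 and 6.64 FPKM in S34F dox+ but at 0.0800 and 2.02 FPKM in WT dox+, so its difference of 1.49 ± 0.69 (SE, limma) had the adjusted p of 0.751, and without S34F dox+ replicate 2 it was 0.75. LAMA4, an alpha chain of vascular and mesenchymal basement membranes, was at 3.61 and 6.22 FPKM against 2.06 and 3.07 FPKM, a difference of 0.71 ± 0.34 (SE).

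LAMB3 was 0.40 ± 0.15 (SE) higher on the log2 scale in S34F dox+, with an adjusted p of 0.697 in limma. Without S34F dox+ replicate 1 the difference of LAMB3 was 0.21 and without replicate 2 it was 0.59. Its partner LAMA3 differed by 0.09 ± 0.09 (SE), with an interval at 95% of -0.12 to 0.31. ITGB1 was at 697 and 599 FPKM in S34F dox+ and at 545 and 547 FPKM in WT dox+, a difference of 0.24 ± 0.11 (SE) with an adjusted p of 0.754 in limma, and without S34F dox+ replicate 1 it was 0.13. COL8A1, a short-chain collagen of vessel and corneal membranes, differed by 0.40 ± 0.27 (SE).

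Of the other integrin alpha subunits, ITGA3, which forms the laminin receptor alpha3 beta1, differed by -0.11 ± 0.16 (SE), ITGA2, of the collagen receptor alpha2 beta1, by 0.11 ± 0.20, ITGA5, of the fibronectin receptor, by 0.11 ± 0.18, and ITGAV by 0.03 ± 0.16. ITGA1, of the collagen receptor alpha1 beta1, was at 5.06 and 3.26 FPKM against 5.11 and 9.94 FPKM in WT dox+, a difference of -0.69 ± 0.34 (SE, limma) with an adjusted p of 0.759, and the groups did not overlap. Without WT dox+ replicate 2 the difference of ITGA1 was -0.27 and without WT dox+ replicate 1 it was -1.11. Its locus holds the gene PELO, so reads of the overlapping genes may have been split between them. Among beta subunits, ITGB5, ITGB6 and ITGB8, which pair with ITGAV, differed by -0.09 ± 0.19, -0.56 ± 0.31 and 0.03 ± 0.20 (SE). ITGB2, the beta subunit of leukocyte integrins, was at 22.6 and 21.0 FPKM in S34F dox+ against 27.9 and 28.4 FPKM in WT dox+, a difference of -0.36 ± 0.21 (SE).

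Laminin-511 and collagen VI chains were not called between the induced lines either. LAMC1 differed by 0.04 ± 0.09 (SE), with an interval at 95% of -0.17 to 0.26. LAMB1 differed by 0.10 ± 0.32, with an interval of -0.63 to 0.83, and LAMA5 by -0.36 ± 0.36. Closeness of LAMB1 and LAMA5 between the lines is therefore not shown. LAMA5 rested on its replicates, which were at 13.2 and 29 FPKM in S34F dox+. COL6A1 and COL6A2 differed by 0.01 ± 0.16 and 0.15 ± 0.12 (SE), LAMB2 by 0.20 ± 0.17 and COL18A1, the collagen that gives rise to endostatin, by 0.25 ± 0.24. Under median-ratio scaling and under TPM the sign turned for the small differences of LAMC1 and COL6A1.

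**Figure D3:**
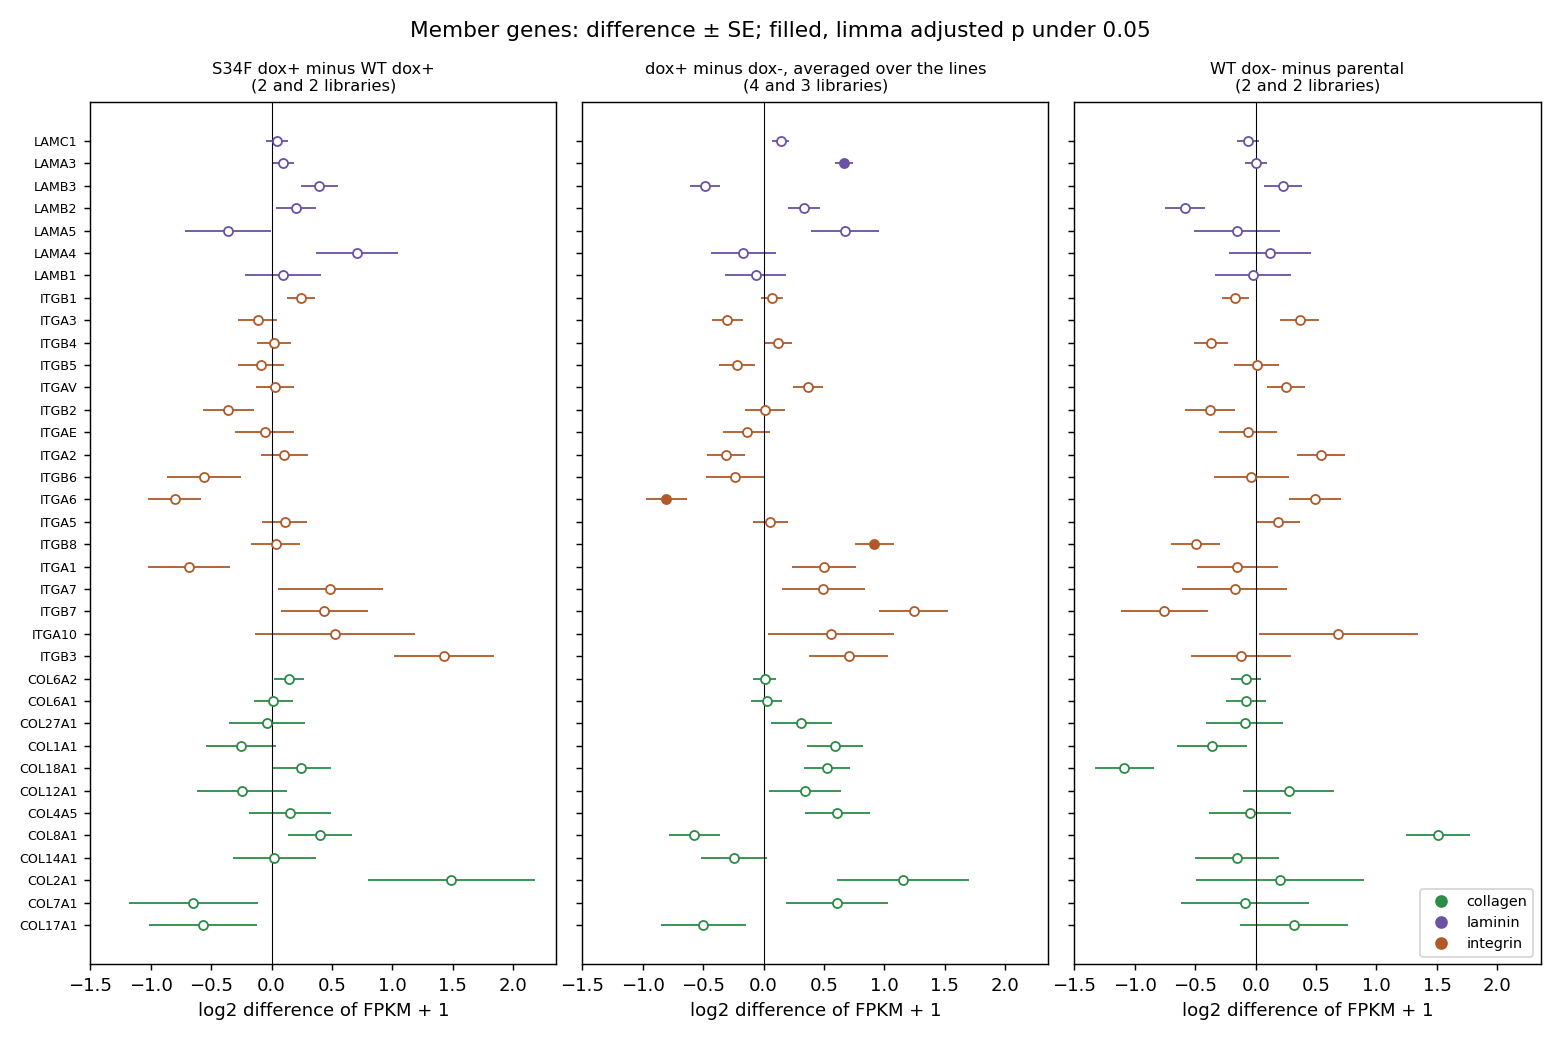
Log2 difference of FPKM + 1 with its limma SE for each member, with filled points for an adjusted p under 0.05. No member is filled between S34F dox+ and WT dox+ (left), LAMA3, ITGB8 and ITGA6 are filled in the comparison averaged over the lines (middle, chosen after the values had been seen), and no member is filled between WT dox- and parental (right).

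Between the uninduced lines, S34F dox- and WT dox-, limma called 0 of 36 members, where 0.0461% of all genes were called, and 0 members had an unadjusted p under 0.05 in either direction, against 1.48% of all genes for higher and 1.63% for lower values. S34F dox- was a single library, and the fit assumed that it varied like the others. Averaged over the uninduced and induced state, limma called 0 members between the S34F line and the WT line (0.119% of all genes), and at an unadjusted p under 0.05 ITGB1 (0.23 ± 0.09, SE) and LAMB3 (0.37 ± 0.12, SE) were higher in the S34F line and 0 members were lower, against 3.39% and 2.58% of all genes. The median difference of members was 0.05 and that of all genes 0.01.

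The next comparison was that of WT dox+ with WT dox-. Limma called 0 of 36 members (0.0132% of all genes). At an unadjusted p under 0.05, 6 members were higher (8.80% of all genes) and 2 were lower (5.59%). LAMA3 was higher by 0.59 ± 0.09 (SE), with an adjusted p of 0.101 in limma, which was the lowest among members. The others higher were ITGB7, an integrin beta subunit of lymphocytes, by 1.08 ± 0.36, COL1A1 by 0.72 ± 0.29, ITGB8 by 0.65 ± 0.20, ITGAV by 0.39 ± 0.16 and LAMC1 by 0.24 ± 0.09 (SE). Those lower were COL8A1 at -0.72 ± 0.27 and LAMB3 at -0.51 ± 0.15 (SE). The median was 0.10 over members and 0.05 over all genes.

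The test of whether the doxycycline response differed between the S34F and WT lines called 0 of 36 members (0.0264% of all genes, limma). At an unadjusted p under 0.05 the response of ITGB3 was higher in the S34F line, by 1.69 ± 0.66, and that of ITGA6 was lower, by -0.91 ± 0.34 (SE), against 2.21% and 1.21% of all genes. ITGB3 was a member only through S34F dox+, which favours this direction, so its value is a description. Both had an adjusted p of 1 in limma. This difference rests on the single S34F dox- library.

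Because the lines were close in their responses of LAMA3 and LAMB3, the 4 dox+ libraries were also compared with the 3 dox- libraries of the same lines, with both lines weighted equally. This comparison was added after the values had been seen and shares its libraries with those above, so it is no independent support for them. Limma called 3 of 36 members, 2 higher and 1 lower, where 589 of 15179 genes were called (3.88%). LAMA3 rose by 0.67 ± 0.07 (SE, limma, adjusted p = 0.0108) and ITGB8 by 0.92 ± 0.16 (SE, adjusted p = 0.0339). ITGA6 fell, with a log2 difference of -0.80 ± 0.17 (SE, limma, adjusted p = 0.0489). Just beyond the threshold in limma were ITGB7 at 1.24 ± 0.28 (SE, adjusted p = 0.0563) and LAMB3 at -0.49 ± 0.12 (SE, adjusted p = 0.0686).

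ITGB8 encodes the partner of ITGAV in the integrin that activates latent TGF-beta. It was at 5.97 and 6.99 FPKM in parental cells, 4.02 and 4.57 in WT dox-, 2.76 in S34F dox-, 8.62 and 6.53 in S34F dox+ and 8.16 and 6.55 in WT dox+. The 4 dox+ libraries lay above the 3 dox- libraries of the transduced lines but overlapped the parental ones. ITGAV itself was at 33.7 to 45.1 FPKM in the dox+ libraries and at 23.3 to 30.6 FPKM in the 5 others, which did not overlap, with a log2 difference of 0.37 ± 0.12 (SE) and an adjusted p of 0.126 in limma. ITGA6, by contrast, was lower with doxycycline in each line. The fall was carried more by the S34F line, whose dox+ libraries were the lowest, but the difference between the lines did not pass the adjusted test.

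The calls of this added comparison depended on single libraries, over all genes as well as among members. Leaving out WT dox- replicate 1 or either WT dox+ replicate gave a count of 0, where 37, 18 and 10 of all genes were called, and leaving out WT dox- replicate 2 gave 1, where 248 were called. Of the S34F dox+ libraries, leaving out replicate 1 gave 2 and leaving out replicate 2 gave 1, where 347 and 66 of all genes were called. The differences themselves moved little in these refits, from 0.65 to 0.69 for LAMA3, from 0.83 to 1.00 for ITGB8 and from -0.94 to -0.66 for ITGA6. The single S34F dox- library could not be left out and weighed as much as both WT dox- libraries together. It held the lowest LAMA3 and ITGB8 values of all libraries, 117 and 2.76 FPKM, and the highest ITGA6 value, 19.0 FPKM. Under median-ratio scaling the median of all genes moved from 0.08 to -0.09 in this comparison, LAMA3 was 0.47, ITGB8 0.75 and ITGA6 -0.99, and 5 members were called, where 1180 of 15179 genes were called.

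**Figure D4:**
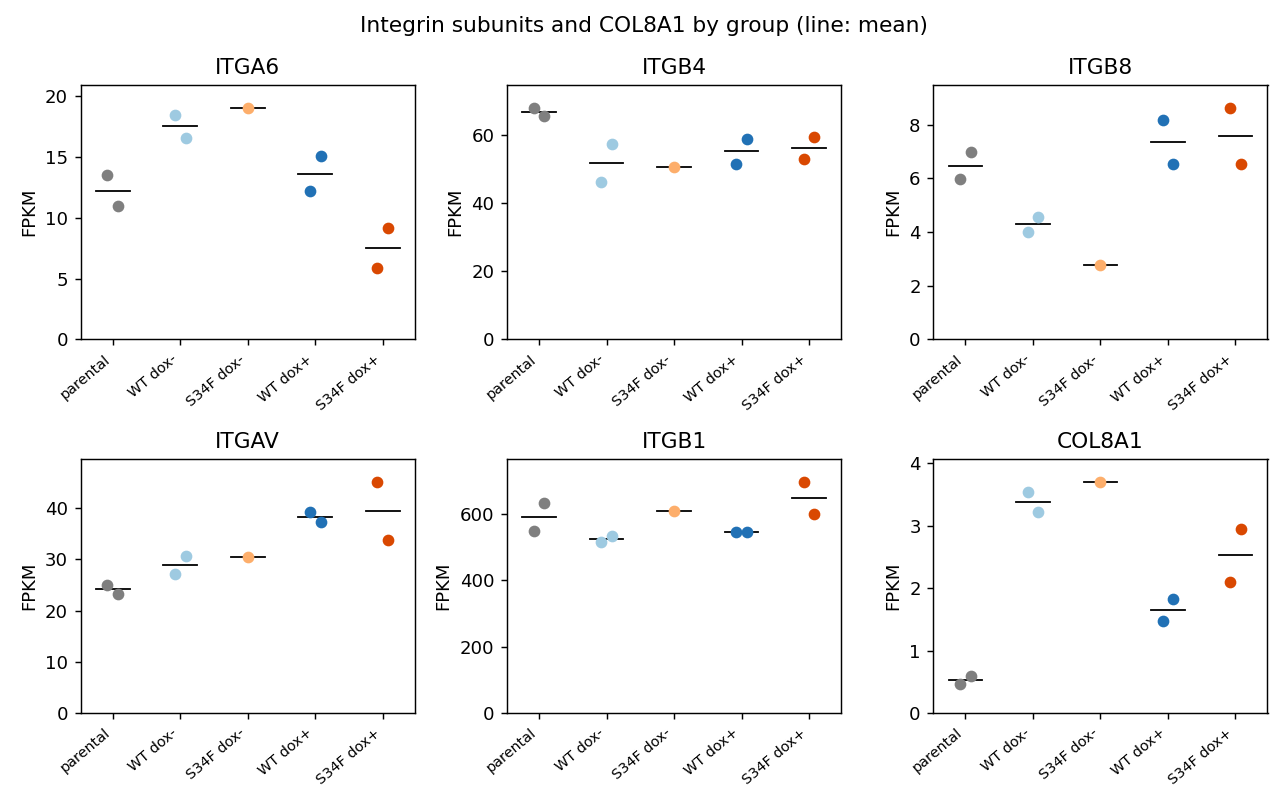
FPKM of the integrin subunits ITGA6, ITGB4, ITGB8, ITGAV and ITGB1 and of COL8A1 in each library, by group, with the mean as a line. ITGA6 is lowest in S34F dox+ (5.88 and 9.14 FPKM), and COL8A1 is lowest in parental cells (0.470 and 0.600 FPKM).

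Between WT dox- and the parental line, limma called 0 of 36 members, where 15 of all genes were called (0.0988%). At an unadjusted p under 0.05, 2 members were higher (5.79% of all genes) and 4 were lower (6.54%). COL8A1 was at 3.53 and 3.21 FPKM against 0.470 and 0.600 FPKM, and the 7 libraries of the transduced lines all lay above both parental libraries. Its log2 difference was 1.51 ± 0.27 (SE) with an adjusted p of 0.125 in limma, and it was called among protein-coding genes only. ITGA2 was also higher, by 0.54 ± 0.20 (SE). COL18A1, at 1.2 and 1.56 FPKM against 3.68 and 4.42 FPKM, differed by -1.09 ± 0.24 (SE), LAMB2 by -0.58 ± 0.17, ITGB8 by -0.50 ± 0.20 and ITGB4 by -0.37 ± 0.14. The largest other differences without overlap were those of ITGA6, ITGA3 and ITGB7, at 18.5 and 16.6, 101 and 128, and 0.430 and 0.720 FPKM in WT dox- against 13.5 and 10.9, 79.1 and 97.9, and 1.56 and 1.74 FPKM in parental cells. COL17A1, the hemidesmosomal collagen, was at 1.25 and 0.8 FPKM against 0.480 and 0.760 FPKM. The median of members was -0.06. The parental line had not been transduced or subcloned, and its doxycycline status is not settled. Effects of transduction, subcloning and doxycycline on these differences therefore cannot be told apart.

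Genes that act with these members were taken from lists of related genes. Of 26 tested enzymes and chaperones of collagen modification and assembly, limma called 0 in each planned comparison, and in the averaged doxycycline comparison 0 were higher and 1 lower, PPIB, a prolyl isomerase of the endoplasmic reticulum, at -0.43 ± 0.09 (SE, adjusted p = 0.0468). Over all genes, 589 of 15179 (3.88%) were called in the averaged doxycycline comparison, so the calls of these lists there are a description. Of 10 basement membrane partners, 1 was called there, HSPG2, which encodes perlecan, at 0.87 ± 0.18 (SE, limma, adjusted p = 0.0468). Of 33 genes of integrin adhesion and signalling, the tensins TNS1 and TNS3, which tie integrins to actin, were higher there, by 1.06 ± 0.14 and 0.53 ± 0.09 (SE, limma, adjusted p = 0.0171 and 0.0339). TNS1 was at 3.61 and 3.49 FPKM in WT dox- against 13.5 and 13.6 FPKM in parental cells, a difference of -1.67 ± 0.18 (SE, limma, adjusted p = 0.0336). Between WT dox- and parental, 0.0988% of all genes were called. Of 11 other receptors of collagen or laminin, GPR56, an adhesion receptor that binds collagen, was lower in the S34F line averaged over doxycycline, at -0.84 ± 0.10 (SE, limma, adjusted p = 0.0337). In that comparison of the lines, 0.119% of all genes were called. GPR56 was higher in the averaged doxycycline comparison by 0.69 ± 0.10 (SE, limma, adjusted p = 0.0194). GPR56 was at 17.3 FPKM in the single S34F dox- library and at 33.5 to 55.2 FPKM in the libraries of the other groups. Both of its differences lean on that library. In S34F dox+ against WT dox+, 0 genes of these 4 lists were called. At an unadjusted p under 0.05, 4 of the 26 enzymes and chaperones were higher, against 4.01% of all genes. Lower at that limit was 1 gene each of the integrin signalling and the other-receptor lists, against 2.77%.

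Splicing was described from PSI, the percent spliced in written as a fraction, which gives the estimated share of 1 of the alternatives of an event. The tables give 1 pooled PSI for S34F and 1 for WT cells and no replicates, so differences between them carry no test. Coordinates are those of hg19 as listed. Of 230 events of members, 11 lay on the strand opposite to the other events of their gene and were left out, and 176 of the other 219 had at least 20 reads in each condition, in 31 members. LAMC1 had no event. The listed reads were the same pair of numbers for 99 of the 176 events as for another event of the same gene, so the listed numbers were not taken as the reads of a single event, and no interval was computed from them.

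S34F and WT were at least 0.10 apart in PSI in 61 of 176 member events (34.7%), against 29.9% of 73352 events of all genes with as many reads. The share was 39.7% of 68 skipped exons in members and 28.8% in all genes, 33.3% and 37.6% of NAGNAG events, in which the acceptors lie 3 bases apart, 38.1% and 29.3% of alternative 3′ splice sites, 26.5% and 26.1% of alternative 5′ splice sites, and 1 of 5 retained introns against 28.8%. The median difference was 0 in members and in all genes. The share depended on reads. In members it was 62.2% of 37 events whose smaller side had 20 to under 100 reads, 34% of 100 events with 100 to under 1000 reads and 10.3% of 39 events with 1000 reads or more, and in all genes it was 49.2%, 29.2% and 11.1%. By family it was 52.3% of 44 collagen, 32.0% of 103 integrin and 17.2% of 29 laminin events. The families were not matched for reads. COL17A1, with a median of 42 reads in S34F, gave 11 of the collagen events, 5 of them that far apart.

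**Figure D5:**
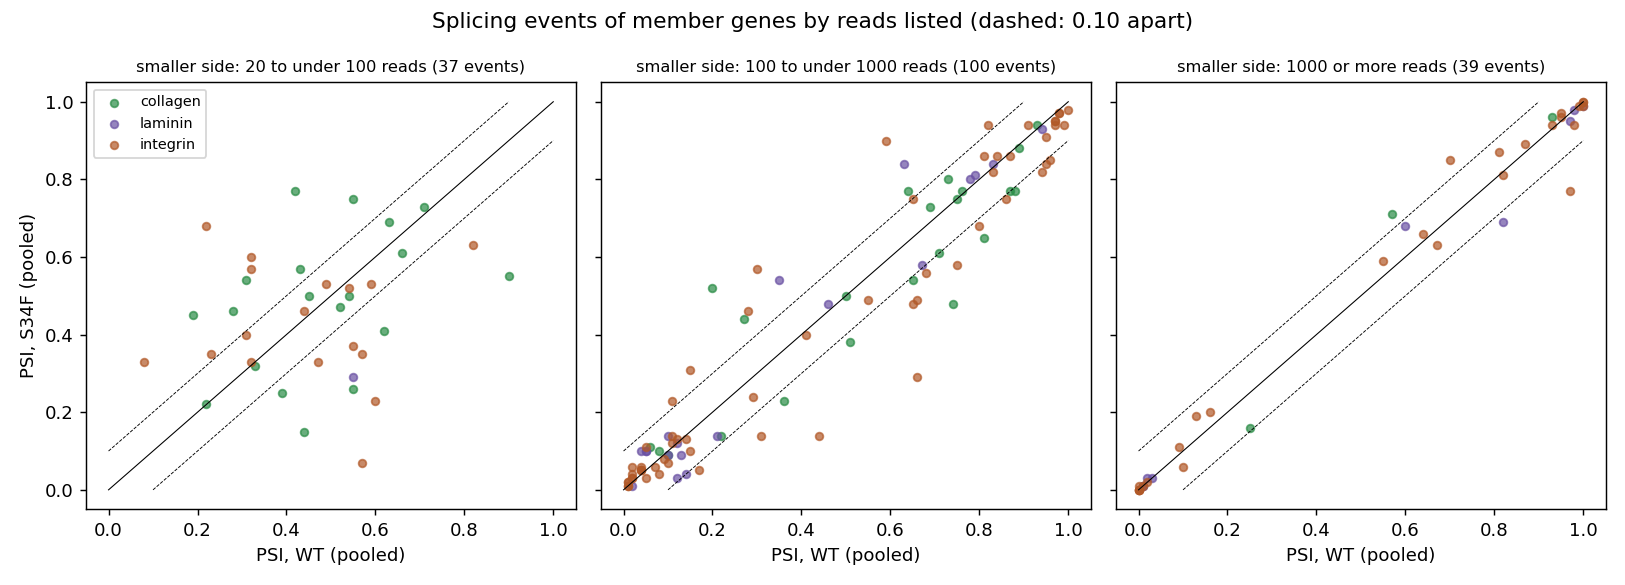
PSI of member events in S34F cells against WT cells (pooled, fractions), in panels by the number of reads listed on the smaller side, coloured by family, with dashed lines 0.10 from equality. Of the 39 events with 1000 reads or more, 4 are at least 0.10 apart, against 23 of the 37 events with 20 to under 100 reads.

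The most abundant members had close PSI values in S34F and WT. The 13 events of ITGB1, with a median of 16014 reads in S34F and 19444 in WT, differed by at most 0.02 in PSI. All of them had a PSI of at most 0.09 or at least 0.86 in both conditions, which leaves less room for a difference than intermediate values do. The largest difference was 0.08 over 5 events of LAMA3. LAMB3 had 1 event further apart, a skipped exon between chr1:209806478 and chr1:209811253, at 0.69 in S34F and 0.82 in WT with 5312 and 5860 reads. ITGA3 differed by at most 0.06 over 8 events, and its skipped exon between chr17:48165233 and chr17:48166474 was at 0.94 and 0.93.

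Events of ITGA6 and ITGB4 are given because these subunits form a pair. In ITGA6 the skipped exon between chr2:173352956 and chr2:173355752 was at a PSI of 0.29 in S34F and 0.66 in WT, with 196 and 412 reads listed. A skipped exon nearer the end of the gene, between chr2:173362828 and chr2:173368819, was at 0.75 and 0.65 with 309 and 693 reads. Of its 8 events with enough reads, 4 were at least 0.10 apart. ITGB4 had 3 of 11 events that far apart. A NAGNAG event between chr17:73728320 and chr17:73729574 was at 0.14 in S34F and 0.44 in WT. The 957 and 1455 reads listed for it were also listed for other events of the gene.

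Other large differences lay in events with few listed reads and in events with more, numbers that are often shared by events of a gene. An alternative 5′ splice site of ITGA7, a laminin-binding subunit of muscle, between chr12:56093773 and chr12:56094683 was at 0.07 in S34F and 0.57 in WT with 27 and 52 reads. In ITGB7 a NAGNAG event between chr12:53589980 and chr12:53590363 was at 0.23 and 0.60 with 23 and 27 reads, and an alternative 3′ splice site between chr12:53585420 and chr12:53585643 was at 0.68 and 0.22 with 24 and 31 reads. An alternative 3′ splice site of COL17A1 between chr10:105793133 and chr10:105793703 was at 0.77 and 0.42 with 42 and 84 reads. In COL27A1, a fibrillar collagen, a skipped exon between chr9:116945355 and chr9:116958239 was at 0.52 and 0.20. The 349 and 517 reads listed for it were those listed for all 4 events of the gene. In ITGB2 an alternative 3′ splice site between chr21:46330287 and chr21:46330515 was at 0.90 and 0.59 with 274 and 442 reads. The event with the same acceptors that extends to chr21:46330640 was closer, at 0.94 and 0.82 with 683 and 1066 reads.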

How the data were processed

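The 9 RNA-Seq libraries of HCC78 cells fell into 5 groups by their labels. The authors aligned paired-end reads of total RNA to hg19 with STAR 2.3.0 and deposited FPKM and TPM per gene from RSEM 1.2.29, per the labels and the submitters' processing notes, which also name Bowtie2. The deposited tables hold no counts per gene, so depth is unknown and intervals from counts were not computed. For splicing, the authors deposited MISO tables of 5 event types with PSI as a fraction, or as a list of values (other) where an event has several isoforms, and read counts for S34F and WT. S34F was taken as the first side, from the order in the tables' titles. How replicates were combined is not given in the sources used here. The columns with the authors' PSI difference and Bayes factor were not used. iCLIP samples were not analysed here.

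Genes under 1 FPKM on average were removed, and log2(FPKM + 1) of the remaining 15179 was fitted with limma 3.58.1 (trend) in R 4.3.3, with the 5 groups in a single fit, without covariates, and adjusted by Benjamini-Hochberg over all genes (two-sided, threshold 0.05). On data simulated for S34F dox+ against WT dox+ with 200 of 15179 genes changed by 2 on the log2 scale, 200 were recovered, with 9 false calls. The changed genes were drawn only from those with a spread under the median and a higher level. Recovery of smaller changes, or of changes in low or more variable genes, was therefore not tested. There were 6 planned comparisons and 1 added. For events with several isoforms the isoform furthest apart was used. Promoter sequences are from RefSeq, GRCh38.p14, and 26 of the 36 members described matched by symbol.

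The rule found 37 members, and 1 of them is not reported here. Members and lists were chosen with earlier results of these data known. Members named had a mean of at least 20 FPKM, an adjusted p under 0.05 in a planned comparison, were among the 5 largest differences without overlap in each direction (S34F dox+ against WT dox+, WT dox- against parental), or belong to the complexes of collagen IV and VI, the laminins and integrins alpha2, alpha3, alpha5, alpha6 and alphav. The 3 events furthest apart in each direction and at most 3 called genes of each list and direction were also named. Others named were chosen after their values were seen. Other settings tried were TPM, scaling, a pseudocount of 0.1, no minimum or one of 5 FPKM, protein-coding genes only, a replicate block, fewer libraries and other limits on reads and PSI.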

Additional observations from a re-analysis of the deposited data

How the results depend on the processing

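The count of members called stayed at 0 under every alternative run, leave-one-out included, in S34F dox+ against WT dox+, WT dox+ against WT dox-, S34F dox- against WT dox-, the difference of the responses and the lines averaged over doxycycline. In WT dox- against parental the count of 0 became 1 (COL8A1) among protein-coding genes only and stayed at 0 under the other alternatives, leave-one-out included. In the comparison of dox+ with dox- averaged over the lines, added after seeing the data, the count of 3, where 589 of all genes were called, became 1 with no minimum FPKM, with quantile normalization and with the replicate block (140, 209 and 242 of all genes), 5 with median-ratio scaling and among protein-coding genes only (1180 and 789), 4 with a pseudocount of 0.1 (691) and 2 with TPM (506), and was 0 to 2 without each replicate. The causes were not tested. The same replicate numbers did not deviate together (correlations of -0.076 to 0.037 between groups over 15179 genes), so the block shares only a number.

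For S34F dox+ against WT dox+, 219 of 234 refits of the 27 named members kept the direction and side of the threshold. The sign reversed for COL6A1 (-0.046 with median-ratio scaling, -0.038 with quantile normalization, -0.093 with TPM), ITGA2 (-0.0055 with TPM), ITGAV (-0.038 with median-ratio scaling, -0.088 with TPM), ITGB4 (-0.044 and -0.093), ITGB8 (-0.024 and -0.071, and -0.054 with quantile normalization), LAMC1 (-0.022 and -0.073), LAMA3 (-0.023 with TPM) and LAMB1 (-0.0025 with quantile normalization). Without a replicate, 16 of 108 refits reversed: COL6A1 (-0.10 to 0.13), ITGA2 (-0.18 to 0.39), ITGA5 (-0.088 to 0.31), ITGAV (-0.18 to 0.23), ITGB4 (-0.073 to 0.12), ITGB5 (-0.35 to 0.18), ITGB7 (-0.0046 to 0.88), ITGB8 (-0.14 to 0.21), LAMA5 (-0.90 to 0.18), LAMB1 (-0.26 to 0.46) and LAMC1 (-0.015 to 0.11). Leaving out 1 library also moved LAMB3 (0.21 to 0.59), ITGA1 (-1.11 to -0.27), ITGB1 (0.13 to 0.35), LAMA4 (0.39 to 1.03) and ITGB6 (-0.81 to -0.30) with no change of sign. The 61 events at least 0.10 apart in PSI became 38 of 139 where both conditions had 100 reads or more and 24 of 176 at a difference of at least 0.20, where fewer events can pass. S34F dox- has no second library to leave out. With a single library left in a group, the fit assumed that it varied like the other groups. Without counts, what depth limits could not be computed.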
